A study of Homo sapiens with 96 samples.

Results

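The exon events described here are the cassette exons, mutually exclusive exons and alternative splice sites measured in A549 cells, a human lung adenocarcinoma line, after 4 days with MS023 and after 4 days with the solvent DMSO. They were chosen as all events of 4 types in the deposited comparison of these groups, and numbered 128249 of the 132729 events listed there. The remaining 4480 were retained introns (RI), which serve only as a reference. The types were skipped exons (SE, 93211 events), mutually exclusive exons (MXE, 22339), alternative 3′ splice sites (A3SS, 7655) and alternative 5′ splice sites (A5SS, 5044). Each group held 3 poly(A)-RNA seq libraries. One group was grown with 1 µM MS023, an inhibitor of Type I protein arginine methyltransferases (PRMTs), and the other with 0.01% DMSO. The study also treated these cells for 2 and 7 days, and with 1 µM GSK591, an inhibitor of the Type II enzyme PRMT5. Tables of MS023 at 2 and 7 days and of GSK591 at 4 days were read for comparison, and the 4 tables together held 197043 different events. All groups are of 1 cell line, and nothing in the labels says whether the libraries of a group came from separate cultures. The p-values thus rest only on the spread between these libraries, as a model estimates it over many events. The columns name no replicate, and libraries are called a, b and c by their position. The tables hold no counts per gene, so neither markers of the cell line nor the action of the inhibitor could be checked in them.

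Most human genes are spliced in several ways, and whether an exon is kept depends on the strength of its splice sites and on proteins bound nearby. SR proteins, which carry tracts of arginine and serine, often promote the use of an exon, and hnRNP proteins often repress it, although both can act either way. Many of these proteins, and the Sm proteins of the spliceosome, are methylated on arginine. Type I PRMTs form asymmetric dimethylarginine, and MS023 inhibits this class. An exon whose length is a multiple of 3 can be kept or skipped without moving the reading frame, and very short exons are called microexons.

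The exons below were picked from those whose Ψ values are described in full. Some of the largest differences, such as that of PLEC, are not shown, and the PKM pair had a small ΔΨ of 0.0126. Sequences were read from GRCh37 (hg19), 5′ to 3′ on the strand of the transcript, with the exon in capitals and the 20 intron bases on either side in lower case. The first 4 exons were used more with MS023, the next 4 less. They are followed by 2 microexons and by 2 pairs of mutually exclusive exons. All are coding in the annotation.
MICAL3 exon of 51 bases (chr22:18286577-18286627, minus strand): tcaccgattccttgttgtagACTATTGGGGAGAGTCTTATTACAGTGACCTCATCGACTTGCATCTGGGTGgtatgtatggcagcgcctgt
ASAP2 exon of 135 bases (chr2:9531191-9531325, plus strand): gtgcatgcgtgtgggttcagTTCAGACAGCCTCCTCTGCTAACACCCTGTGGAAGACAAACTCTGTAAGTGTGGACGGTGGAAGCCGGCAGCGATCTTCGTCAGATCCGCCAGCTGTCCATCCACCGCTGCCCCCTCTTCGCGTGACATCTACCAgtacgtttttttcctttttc
MKNK1 exon of 44 bases (chr1:47025906-47025949, minus strand): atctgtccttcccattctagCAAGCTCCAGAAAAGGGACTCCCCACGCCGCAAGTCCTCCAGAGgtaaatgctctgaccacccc
GPBP1 exon of 60 bases (chr5:56532940-56532999, plus strand): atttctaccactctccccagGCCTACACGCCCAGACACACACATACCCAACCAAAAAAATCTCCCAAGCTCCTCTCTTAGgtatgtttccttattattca
RAB11FIP3 exon of 135 bases (chr16:541134-541268, plus strand): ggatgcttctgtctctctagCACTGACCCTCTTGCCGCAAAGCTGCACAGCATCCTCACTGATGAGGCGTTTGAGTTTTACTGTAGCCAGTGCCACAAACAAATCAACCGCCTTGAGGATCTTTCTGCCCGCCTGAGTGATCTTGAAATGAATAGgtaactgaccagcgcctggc
BRF1 exon of 150 bases (chr14:105707602-105707751, minus strand): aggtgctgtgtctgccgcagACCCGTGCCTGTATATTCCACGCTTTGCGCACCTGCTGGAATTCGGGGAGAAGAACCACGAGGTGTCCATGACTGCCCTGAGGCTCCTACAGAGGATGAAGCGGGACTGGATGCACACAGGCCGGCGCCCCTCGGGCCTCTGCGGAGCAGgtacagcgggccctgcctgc
PICALM exon of 150 bases (chr11:85701293-85701442, minus strand): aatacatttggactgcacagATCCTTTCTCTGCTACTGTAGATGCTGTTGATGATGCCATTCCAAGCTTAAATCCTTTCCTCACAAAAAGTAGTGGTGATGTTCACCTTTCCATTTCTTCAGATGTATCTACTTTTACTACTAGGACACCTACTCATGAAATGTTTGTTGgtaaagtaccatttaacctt
EXOC7 exon of 93 bases (chr17:74087224-74087316, minus strand): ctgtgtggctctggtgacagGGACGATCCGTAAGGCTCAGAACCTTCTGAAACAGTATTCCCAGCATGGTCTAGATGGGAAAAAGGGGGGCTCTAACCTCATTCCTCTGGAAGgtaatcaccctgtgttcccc
FLNA exon of 24 bases (chrX:153585619-153585642, minus strand): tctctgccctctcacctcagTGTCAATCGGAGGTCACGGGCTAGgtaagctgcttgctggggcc
AP1B1 exon of 9 bases (chr22:29725701-29725709, minus strand): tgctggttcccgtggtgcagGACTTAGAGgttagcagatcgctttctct
TPM2 exon used more (chr9:35685061-35685136, minus strand): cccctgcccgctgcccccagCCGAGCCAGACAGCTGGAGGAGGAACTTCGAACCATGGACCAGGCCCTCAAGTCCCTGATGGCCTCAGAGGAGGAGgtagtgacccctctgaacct
TPM2 exon used less (chr9:35684729-35684804, minus strand): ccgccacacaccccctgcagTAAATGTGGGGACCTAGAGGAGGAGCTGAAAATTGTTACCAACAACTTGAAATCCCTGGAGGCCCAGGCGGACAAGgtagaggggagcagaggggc
PKM exon of the M1 form (chr15:72495363-72495529, minus strand): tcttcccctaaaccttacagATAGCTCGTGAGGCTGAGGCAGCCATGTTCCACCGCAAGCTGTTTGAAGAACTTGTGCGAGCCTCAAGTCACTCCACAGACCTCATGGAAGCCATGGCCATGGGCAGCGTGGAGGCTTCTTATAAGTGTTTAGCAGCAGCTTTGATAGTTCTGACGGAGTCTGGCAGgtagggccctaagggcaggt
PKM exon of the M2 form (chr15:72494795-72494961, minus strand): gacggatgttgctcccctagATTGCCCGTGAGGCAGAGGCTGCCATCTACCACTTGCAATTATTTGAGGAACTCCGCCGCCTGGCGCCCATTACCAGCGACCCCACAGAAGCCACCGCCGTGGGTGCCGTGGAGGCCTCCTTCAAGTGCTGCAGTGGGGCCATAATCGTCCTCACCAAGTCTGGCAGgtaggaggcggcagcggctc

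In all 4 types, a set of events differed between the groups by more than the modelled spread between libraries, and most of the called exons and long splice forms were used less with MS023. The measure was Ψ, the share of inclusion (percent spliced in, written as a fraction from 0 to 1 and as PSI on the plots). ΔΨ is MS023 minus DMSO. For SE, inclusion keeps the exon. For A3SS and A5SS it is the longer exon, and for MXE it is the form with the exon that comes first in the transcript. Of 78780 SE with at least 10 reads in every library, 1554 were called at an adjusted p under 0.05, which is 1.97% of those tested. Of these, 512 had a higher and 1042 a lower Ψ with MS023, over 1458 different exons in 1053 genes. Of 20835 MXE, 322 were called (1.55%), with 186 higher and 136 lower. Of 6340 A3SS, 138 were called (2.18%), with 37 higher and 101 lower. Of 4184 A5SS, 144 were called (3.44%), with 39 higher and 105 lower. For RI, 273 of 3945 were called (6.92%), with 58 higher and 215 lower. At an unadjusted p under 0.05 there were 7678 SE, 2092 MXE, 702 A3SS and 512 A5SS.

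These calls rest on a model that shares the estimate of spread between events. For SE, A3SS and A5SS the spread of an event's own libraries did not enter its p. When limma was instead given the log2 odds of each library, it called 3 SE, 21 MXE and 0 A3SS or A5SS, with 6907 SE, 1893 MXE, 566 A3SS and 389 A5SS at an unadjusted p under 0.05. The MXE count fell to 183 without MS023 library b, 211 without MS023 library a and 213 without MS023 library c. The A3SS count was 89 when DMSO library b or MS023 library b was left out, and 82 when MS023 library c was.

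**Figure D1:**
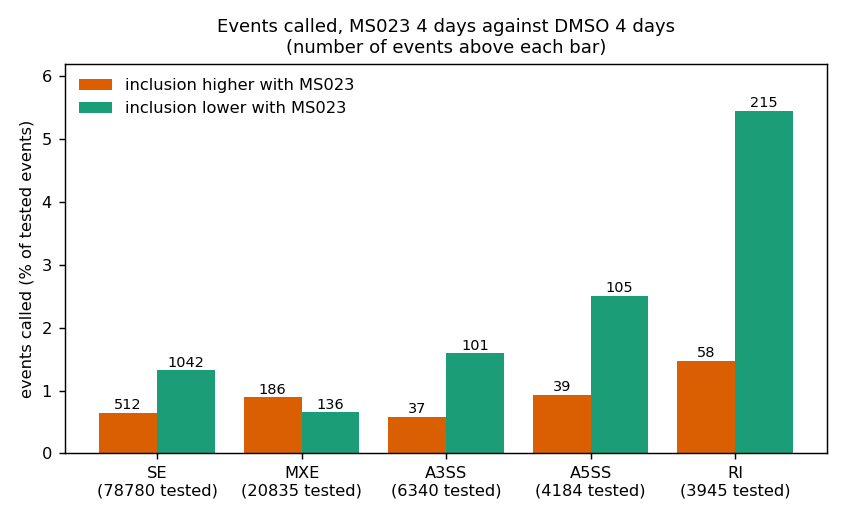
Share of tested events called with MS023 at 4 days, by event type, with higher and lower Ψ drawn separately as bars from 0 (vertical axis, percent of tested events; the number of events stands above each bar). Lower calls outnumber higher ones for SE (1042 and 512), A3SS and A5SS, and the order is the other way for MXE (186 higher, 136 lower).

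The called differences were mostly moderate. The median absolute ΔΨ was 0.0896 for called SE, 0.0887 for MXE, 0.0867 for A3SS and 0.0874 for A5SS. It reached at least 0.1 in 704 SE, 146 MXE, 59 A3SS and 63 A5SS, and at least 0.2 in 268, 31, 16 and 17 of them. The groups did not overlap in 96.3% of called SE, against 11% of all SE tested, and called events were more deeply read, with a median of 421 reads in their shallowest library against 182. Called SE were mostly alternative exons already in DMSO, since 60.7% of them had a Ψ between 0.05 and 0.95 there, against 19.8% of SE tested. Altogether 2158 events were called in 1270 of 10883 genes, and 241 genes had calls in more than 1 type. Events of 1 gene often share reads and junctions, so they are not independent.

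No library stood apart, and no 2 libraries of a group agreed within sampling noise (chi-square per degree of freedom from 2.26 to 2.62 within groups, 7.71 to 8.8 between them). Counts on the 4 types summed to between 85451117 and 95903911 per library, with a read counted in every event it overlaps. Among 5399 SE with at least 50 reads in every library and a mean Ψ away from both ends of the scale, the median absolute difference in Ψ between libraries was 0.0428 to 0.0461 within DMSO, 0.043 to 0.0441 within MS023 and 0.0641 to 0.069 between the groups. The median Ψ over tested SE was 0.996 ± 0.000675 in DMSO and 0.9933 ± 0.000465 with MS023 (SD, n = 3 each). This difference of -0.0027 had an exact permutation p of 0.1, two-sided, which is the smallest that 3 libraries against 3 can give. The share of SE with a Ψ under 0.9 was 22.07% ± 0.0577 in DMSO and 22.9% ± 0.1 with MS023 (exact permutation p = 0.1).

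Single events were ranked by ΔΨ among called events with at least 50 reads in every library and no overlap between groups, 1 per gene and type. The same exon can be tested between several pairs of flanking exons, and each Ψ given is that of 1 such pair. Some events on fewer reads had larger differences, and over all called SE ΔΨ ran from -0.728 to 0.657. Among the ranked exons used less with MS023, the one with the largest drop lay in PLEC, which encodes the cytolinker plectin. This coding exon of 3381 bases (chr8:144996672-145000052, minus strand) had a Ψ of 0.711, 0.706 and 0.71 in the DMSO libraries and of 0.22, 0.206 and 0.195 with MS023. Its groups were far apart, with a log2 odds ratio of -3.22 ± 0.09 (SE) and an adjusted p of 1.41e-317. The reads that skip it numbered 394, 384 and 365 in DMSO and 764, 725 and 723 with MS023, while those that include it numbered 22984, 21884 and 21124, and 5091, 4462 and 4147. Long exons collect more reads, and Ψ divides by effective length. Without that division ΔΨ of the PLEC exon was -0.12 in place of -0.50. The same held for the exon of 2082 bases of PRRC2B, which encodes an RNA-binding protein, where Ψ went from 0.822 ± 0.0119 to 0.442 ± 0.0183 (SD, n = 3 each). Its ΔΨ was -0.38 with lengths and -0.0635 without. Among the 126 events described here, ΔΨ moved by over 1.5 times without the lengths in 46, of a median length of 252.5 bases against 85 for the rest. The test uses the counts alone, so no call depends on the lengths.

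RAB11FIP3, an effector of the recycling GTPase RAB11, held the 135-base exon shown above. Its Ψ was 0.774, 0.907 and 0.761 in DMSO and 0.346, 0.338 and 0.275 with MS023. All 3 MS023 libraries were below all DMSO libraries, and ΔΨ was -0.49 with a log2 odds ratio of -3.18 ± 0.30 (adjusted p = 2.45e-27). Between other flanking exons the ΔΨ of this exon was -0.0327, without a call. The 150-base exon of BRF1, a subunit of the TFIIIB factor of RNA polymerase III, had a Ψ of 0.926, 0.891 and 0.899 in DMSO and of 0.539, 0.45 and 0.499 with MS023. Between these flanking exons it thus went from near-constant use to about equal use of both forms, without overlap (log2 odds ratio -3.26 ± 0.40, adjusted p = 1.53e-18). The BRF1 exon was tested in 3 events, of which 1 was called, with ΔΨ from -0.41 to 0.0202. EP400, the ATPase of a chromatin remodelling complex, held an exon of 236 bases with a Ψ of 0.885, 0.85 and 0.91 in DMSO and of 0.471, 0.413 and 0.491 with MS023 (adjusted p = 1.65e-22). Here too the groups did not overlap, although without the lengths ΔΨ was -0.27 in place of -0.42.

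Similar drops were measured in genes of other functions. CHFR encodes a ubiquitin ligase of the mitotic checkpoint, and its 216-base exon went from 0.791 ± 0.0656 to 0.412 ± 0.0421 (adjusted p = 4.18e-13). ANKS6, which encodes a protein of the cilium, went from 0.857 ± 0.0455 to 0.473 ± 0.0207 (adjusted p = 6.25e-17), and ACSF3, a mitochondrial malonyl-CoA synthetase, from 0.827 ± 0.0401 to 0.434 ± 0.0675 (adjusted p = 6.87e-09). Without the lengths ΔΨ was -0.17 for ANKS6 and -0.16 for ACSF3. KIAA0430 went from 0.883 ± 0.0387 to 0.473 ± 0.0509 (adjusted p = 3.38e-07), with a ΔΨ of -0.27 without the lengths in place of -0.41. Between other flanking exons ΔΨ was -0.12 for the CHFR exon and 0.0257 for the KIAA0430 exon, and neither was called. In the pyruvate kinase gene PKM, a 117-base exon far upstream went from 0.655 ± 0.0626 to 0.234 ± 0.0332 (adjusted p = 9.56e-06). That event rested on minor forms, with 51 reads in its shallowest library. Between other flanking exons the same PKM segment had a Ψ of 0.00253 ± 0.000583 in DMSO and of 0.00131 ± 0.000466 with MS023 (adjusted p = 0.0394).

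Several of the exons used more with MS023 were short. MICAL3, which encodes a monooxygenase that acts on actin, held a 51-base exon with a Ψ of 0.343, 0.367 and 0.262 in DMSO and of 0.68, 0.633 and 0.723 with MS023. The groups were apart, with ΔΨ of 0.36 and a log2 odds ratio of 2.18 ± 0.44 (adjusted p = 3.16e-05). In ASAP2, an activator of the GTPase activity of ARF proteins, the 135-base exon had a Ψ of 0.29, 0.263 and 0.2 in DMSO and of 0.549, 0.624 and 0.64 with MS023. Every MS023 library was again above every DMSO library (ΔΨ 0.35, log2 odds ratio 2.15 ± 0.34, adjusted p = 3.54e-08). GPBP1, which encodes a binding protein of GC-rich promoters, had a Ψ of 0.264, 0.304 and 0.257 for its 60-base exon in DMSO and of 0.582, 0.627 and 0.603 with MS023. The libraries were close within each group and apart between them (ΔΨ 0.33, adjusted p = 1.88e-19).

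MKNK1, a kinase of the translation initiation factor eIF4E, had a Ψ of 0.246, 0.409 and 0.223 for its 44-base exon in DMSO and of 0.623, 0.629 and 0.659 with MS023 (adjusted p = 1.21e-05). DMSO library b lay closest to the MS023 libraries but did not reach them. FIGNL1, an ATPase of homologous recombination, held a 179-base exon of the 5′ UTR that went from 0.465 ± 0.109 to 0.872 ± 0.0451 (adjusted p = 3.96e-05). The adhesion protein gene FLRT3 also held a 5′ UTR exon, which went from 0.324 ± 0.0651 to 0.622 ± 0.0729 (adjusted p = 7.82e-06). DCAF10, a substrate receptor of CUL4 ubiquitin ligases, went from 0.525 ± 0.13 to 0.817 ± 0.0351 (adjusted p = 5.62e-05). Between other flanking exons the ΔΨ of the DCAF10 exon was 0.0129, without a call. Of the remaining 3 of these 10 exons, the 48-base exon of PRMT7 is described with its enzyme family, and the other two were long. The one of 1607 bases in ERCC8, a gene of transcription-coupled DNA repair, went from 0.0735 ± 0.0256 to 0.395 ± 0.105 (adjusted p = 1.13e-34). In LRIF1, which encodes a binding partner of HP1 proteins, the 1528-base exon went from 0.263 ± 0.0159 to 0.579 ± 0.0174 (adjusted p = 2.12e-15), and its ΔΨ without the lengths was 0.14 in place of 0.32.

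**Figure D2:**
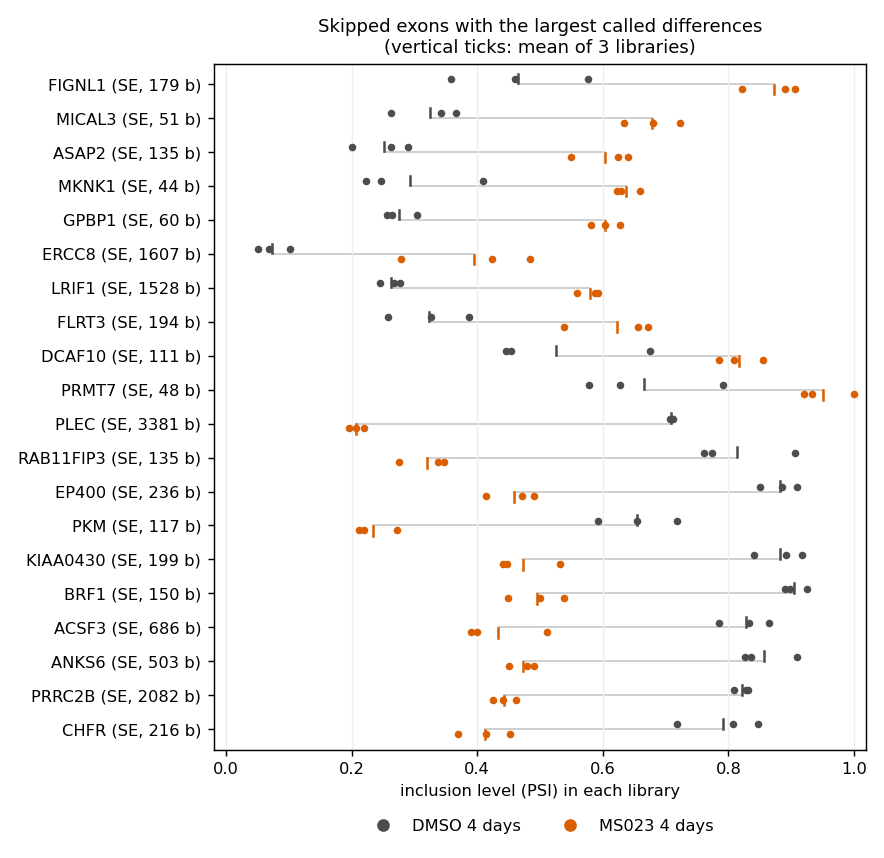
Ψ (PSI, horizontal axis) of the 10 SE with the largest rise and the 10 with the largest drop, 1 per gene, among called events with at least 50 reads in every library and no overlap between groups. Each point is 1 library, short vertical lines are group means (n = 3) and a grey line joins them; the exon length in bases stands beside the gene. MICAL3 lies between 0.262 and 0.367 in DMSO and between 0.633 and 0.723 with MS023.

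Among MXE ranked in the same way, with the same read minimum, the largest rise was in WNK1, a kinase that regulates ion transport. Over all called MXE, ΔΨ ran from -0.447 to 0.46. Reads for its exon of 1239 bases numbered 13, 20 and 18 in DMSO and 728, 624 and 565 with MS023, against 324, 349 and 311, and 276, 297 and 266, for the exon of 84 bases after it. Ψ was 0.00669, 0.00953 and 0.00962 in DMSO and 0.307, 0.261 and 0.263 with MS023. The groups were thus far apart (log2 odds ratio 5.45 ± 0.32, adjusted p = 4.29e-29), and ΔΨ was 0.27 with the lengths and 0.65 without. In RAB11FIP3 the 135-base exon described above also competed with a 36-base exon after it, and Ψ fell from 0.539 ± 0.0328 to 0.206 ± 0.0384 (adjusted p = 3.08e-09). Drops were also called in IQSEC2, an exchange factor of ARF proteins (0.454 ± 0.0471 to 0.147 ± 0.0341, adjusted p = 7.43e-08), and in DZIP3, a ubiquitin ligase (0.858 ± 0.0534 to 0.562 ± 0.0476, adjusted p = 2.87e-04). Without the lengths ΔΨ was -0.2 in place of -0.31 for IQSEC2 and -0.119 in place of -0.30 for DZIP3. The rises in POLR2J3 and RP11-640M9.2 are uncertain, since both belong to near-identical copies between which reads can be split. Their adjusted p reached 0.146 and 0.0529 when 1 library was left out. Of the 322 called MXE, 150 (46.6%) had an exon that was also called as SE, so the types overlap.

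The classical pair of PKM was singled out after its values were seen. Both exons have 167 bases. Ψ of the M1 exon (chr15:72495363-72495529) was 0.00694, 0.00835 and 0.00621 in DMSO and 0.0197, 0.0193 and 0.0202 with MS023, against the M2 exon (chr15:72494795-72494961). The M1 form thus stayed a small share in every library while its groups did not overlap (log2 odds ratio 1.47 ± 0.19, adjusted p = 4.62e-08). In the actin-binding tropomyosin gene TPM2, both exons of the pair shown above have 76 bases. Ψ of the exon at chr9:35685061-35685136 was 0.439, 0.482 and 0.489 in DMSO and 0.64, 0.584 and 0.655 with MS023. All MS023 libraries were above all DMSO libraries (log2 odds ratio 0.92 ± 0.08, adjusted p = 4.09e-12).

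Among A3SS ranked with the same read minimum, FN1, which encodes the matrix protein fibronectin, had the largest drop, while ΔΨ over all called A3SS reached -0.371. The longer form adds 285 coding bases (chr2:216236739-216237023, minus strand), and its Ψ was 0.839, 0.764 and 0.796 in DMSO and 0.499, 0.473 and 0.467 with MS023. The groups did not overlap (log2 odds ratio -2.09 ± 0.23, adjusted p = 1.48e-21), and ΔΨ was -0.32 with the lengths and -0.19 without. NR1H3, a nuclear receptor of oxysterols, went from 0.77 ± 0.0833 to 0.516 ± 0.0458 (adjusted p = 0.0143), and OCEL1 from 0.823 ± 0.0603 to 0.592 ± 0.097 (adjusted p = 0.00351). Their adjusted p reached 0.147 and 0.129 with 1 library left out. Of the rises, that of WSB1, which encodes a subunit of a ubiquitin ligase, was the best measured, from 0.149 ± 0.0373 to 0.328 ± 0.0229 (adjusted p = 1.26e-19). BRD1, a scaffold of a histone acetyltransferase complex, rose from 0.455 ± 0.0779 to 0.677 ± 0.0533 (adjusted p = 2.42e-04). The gene of CCDC150 went from 0.619 ± 0.0459 to 0.921 ± 0.0687 (adjusted p = 0.00427, up to 0.108 with 1 library left out). Without the lengths ΔΨ was 0.0924 in place of 0.30 for CCDC150, 0.134 in place of 0.22 for BRD1, -0.132 in place of -0.25 for NR1H3 and -0.144 in place of -0.23 for OCEL1.

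Among A5SS, DDX5, a DEAD-box RNA helicase, had the lowest adjusted p of the drops described. The longer form, which runs on for 1461 bases in the annotation of a non-coding transcript, had a Ψ of 0.956, 0.95 and 0.954 in DMSO and of 0.663, 0.647 and 0.677 with MS023 (log2 odds ratio -3.38 ± 0.21, adjusted p = 9.69e-90). Reads of its short form numbered 39, 53 and 41 in DMSO and 363, 415 and 340 with MS023. The same junction reads also count as skipping in an SE event of a 225-base coding exon of DDX5, which was singled out after its values were seen, and whose Ψ was 0.986 ± 0.000811 in DMSO and 0.866 ± 0.00729 with MS023 (adjusted p = 1.46e-100). Both calls thus rest on the same junction reads, and ΔΨ of the A5SS was -0.29 with the lengths and -0.0407 without. The 1461 bases contain this whole coding exon, so reads inside it count as inclusion in both events. Inclusion reads in DMSO numbered 9146, 10952 and 9232 for the A5SS and 7230, 8881 and 7606 for the SE event. Ψ of the A5SS is therefore not the share of the 1461-base form. PFKM, the muscle phosphofructokinase, went from 0.888 ± 0.0212 to 0.589 ± 0.0741 over 345 bases of its 3′ UTR (adjusted p = 2.24e-11). Of the rises, ZXDC, which encodes a zinc finger protein, had a Ψ of 0.333, 0.447 and 0.365 in DMSO and of 0.817, 0.749 and 0.836 with MS023, with no overlap (adjusted p = 3.32e-07). ENSA, an inhibitor of the phosphatase PP2A in mitosis, rose from 0.302 ± 0.0327 to 0.504 ± 0.0419 (adjusted p = 3.30e-05). The calls of R3HDM1 (0.434 ± 0.0306 to 0.644 ± 0.0598) and ZNF688 (0.781 ± 0.142 to 0.473 ± 0.0449) had adjusted p of up to 0.0919 and 0.313 with 1 library left out. Without the lengths ΔΨ was -0.14 in place of -0.30 for PFKM and -0.115 in place of -0.31 for ZNF688.

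Exons of PRMT genes themselves were among the calls. MS023 inhibits the Type I members, and the list also holds other PRMTs and their partners. Of 10 PRMT and partner genes tested, 4 had a called event (40.0%, against 11.7% of all genes), with 5 of 131 events called (3.82%, against 1.96% of all events). The median ΔΨ over their tested events was 0.000982, and -0.000687 over all events. The 48-base coding exon of PRMT7, an enzyme that forms monomethylarginine, had a Ψ of 0.791, 0.628 and 0.579 in DMSO and of 0.933, 0.92 and 1 with MS023 (log2 odds ratio 3.19 ± 0.80, adjusted p = 1.68e-04). CARM1, a Type I enzyme, had a Ψ of 0.229, 0.27 and 0.284 for its 69-base exon in DMSO and of 0.164, 0.173 and 0.133 with MS023 (adjusted p = 4.88e-05). The groups overlapped in neither gene. The PRMT7 exon was tested in 4 events, of which 1 was called, with ΔΨ from -0.0142 to 0.285. PRMT2 went from 0.269 ± 0.0361 to 0.373 ± 0.0481 in a 5′ UTR exon, and PRMT1, the main Type I enzyme, from 0.987 ± 0.00566 to 0.972 ± 0.00514 in a 102-base coding exon. The calls of PRMT2 and PRMT1 did not hold without each library (adjusted p up to 0.173 and 0.124). PRMT5 had no called event.

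Splicing regulators had calls in both directions. Of 20 hnRNP genes tested, 7 had a called event, with 19 of 354 events called (5.37%), 10 higher and 9 lower, and a median ΔΨ of 2.74e-05. Over all genes, 11.7% had a called event and 1.96% of events were called. The hnRNP list had 17.7 tested events per gene, against 10.1 over all genes. HNRNPA2B1 rose from 0.378 ± 0.0308 to 0.573 ± 0.0198 in a 136-base exon of the 3′ UTR (adjusted p = 9.18e-18). HNRNPH1 and HNRNPH3, which bind runs of G, moved in opposite directions at alternative 5′ sites. HNRNPH1 went from 0.926 ± 0.00699 to 0.825 ± 0.0115 over 30 bases (adjusted p = 9.28e-32) and HNRNPH3 from 0.692 ± 0.0347 to 0.817 ± 0.00593 over 45 bases (adjusted p = 4.36e-15). HNRNPC fell from 0.826 ± 0.00361 to 0.738 ± 0.00265 in a 26-base exon (adjusted p = 1.30e-27), and HNRNPD, which binds AU-rich RNA, from 0.416 ± 0.0184 to 0.339 ± 0.0251 (adjusted p = 8.28e-10). The HNRNPC exon was tested in 3 events, of which 1 was called, with ΔΨ from -0.0881 to -0.00208. For the HNRNPD exon, ΔΨ between other flanking exons was 0.00335, without a call.

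SR proteins had calls in 4 of 10 genes and 6 of 80 events (7.5%), 2 higher and 4 lower, with a median ΔΨ of -0.00022. The shares over all genes and all events were 11.7% and 1.96%. In SRSF1, Ψ of a 187-base coding exon was 0.987, 0.989 and 0.972 in DMSO and 0.952, 0.948 and 0.939 with MS023 (adjusted p = 6.34e-06), a small but separate shift, with a ΔΨ of -0.0167 without the lengths in place of -0.0363. SRSF2, SRSF3 and SRSF7 were called with an absolute ΔΨ of 0.0232, 0.00621 and 0.0195, and none of these 3 calls held without each library. Among 17 SR-like and U2AF-related genes, 6 had a called event (8 of 247 events, 3.24%, median ΔΨ -0.000942). The splicing coactivator gene SRRM1 rose most clearly, with a Ψ of 0.464, 0.475 and 0.528 for a 42-base exon in DMSO and of 0.74, 0.736 and 0.737 with MS023 (adjusted p = 3.25e-14). Between other flanking exons the ΔΨ of this SRRM1 exon was -0.0199, without a call. A list of RNA-binding proteins with TAF15, TARDBP, RBM3 and CIRBP had calls in 3 of 6 genes and 8 of 101 events (7.92%, median ΔΨ 6.06e-05). TAF15 went from 0.87 ± 0.0116 to 0.807 ± 0.0151 at a 5′ site that adds 9 bases (adjusted p = 4.93e-09).

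The lists of this paragraph stand beside shares of 11.7% of all genes and 1.96% of all events. Regulators of tissue-specific and other alternative splicing had calls in 8 of 21 genes and 13 of 350 events (3.71%, 7 higher and 6 lower, median ΔΨ -0.000907). Among them TIAL1, which binds U-rich RNA, fell from 0.0731 ± 0.00341 to 0.0417 ± 0.00768 (adjusted p = 1.49e-04). PTBP1, the polypyrimidine tract binding protein, went from 0.689 ± 0.0265 to 0.644 ± 0.034 in a 78-base exon (adjusted p = 0.0152, up to 0.636 with 1 library left out). The same PTBP1 exon had a ΔΨ of 0.00144 between other flanking exons, without a call. Sm and snRNP genes had calls in 4 of 24 genes and 7 of 237 events (2.95%, median ΔΨ -0.00034). In SNRNP70, a protein of the U1 particle, Ψ of an exon of 1474 bases was 0.0447, 0.0461 and 0.0419 in DMSO and 0.111, 0.114 and 0.103 with MS023 (adjusted p = 9.81e-154), with a ΔΨ of 0.07 with the lengths and 0.24 without. SF1, the branch point binding protein, fell from 0.0544 ± 0.0116 to 0.0158 ± 0.00275 (adjusted p = 4.91e-16). TREX and mRNA export genes had calls in 4 of 17 genes (5 of 219 events, 2.28%, median ΔΨ -0.000193), among them THOC2, whose A3SS fell from 0.159 ± 0.00699 to 0.0739 ± 0.00408 (adjusted p = 1.09e-04). The same THOC2 bases were tested in 2 events, of which 1 was called, with ΔΨ from -0.0853 to 0.00406. CLK, SRPK and DYRK kinases, which phosphorylate SR proteins, had 1 called event, in SRPK2, among 83 tested (1.2%, median ΔΨ -0.00274), and this call had an adjusted p of up to 0.276 with 1 library left out. Without the lengths ΔΨ was -0.0849 in place of -0.0314 for TIAL1 and -0.0742 in place of -0.0386 for SF1.

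The list with the largest share of called genes was that of genes with isoforms known to differ between epithelial and mesenchymal cells. All tested events of these genes were counted, not the known isoforms alone. Of its 29 genes tested, 18 (62.1%) had a called event, against 11.7% of all genes. By events the share was 41 of 491 (8.35%), 13 higher and 28 lower, with a median ΔΨ of -0.000601, and the list had 16.9 tested events per gene against 10.1 over all genes. The list was chosen with earlier results of these data known. It holds regulators of the cytoskeleton, of adhesion and of polarity. EXOC7, a subunit of the exocyst, had a Ψ of 0.384, 0.409 and 0.369 for its 93-base exon in DMSO and of 0.102, 0.117 and 0.128 with MS023 (log2 odds ratio -2.28 ± 0.21, adjusted p = 6.00e-28). Every MS023 library was below every DMSO library. Between other flanking exons the ΔΨ of the EXOC7 exon was -0.0945, without a call.

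The catenin gene CTNND1 went from 0.661 ± 0.0397 to 0.341 ± 0.0258 in a 119-base exon (adjusted p = 2.20e-36). This exon was tested in 7 events, of which 3 were called, with ΔΨ from -0.32 to 0.00282. FLNA encodes a filamin that crosslinks actin. Its 24-base exon, shown above, had a Ψ of 0.676, 0.683 and 0.683 in DMSO and of 0.452, 0.497 and 0.478 with MS023 (log2 odds ratio -1.24 ± 0.06, adjusted p = 4.01e-94). These values did not overlap. Rises were called in MAP3K7, the kinase TAK1 (0.157 ± 0.042 to 0.377 ± 0.0373, adjusted p = 3.32e-08), in NUMB, an antagonist of Notch (0.312 ± 0.0186 to 0.44 ± 0.0146, adjusted p = 9.45e-04), in RPS24, a ribosomal protein (0.185 ± 0.0135 to 0.326 ± 0.00735, adjusted p = 1.39e-60), and in DNM2, the membrane-cutting GTPase dynamin (0.179 ± 0.0092 to 0.288 ± 0.0454, adjusted p = 4.91e-04). The integrin gene ITGA6 (0.606 ± 0.00395 to 0.434 ± 0.0648) and the hyaluronan receptor gene CD44 (0.0482 ± 0.0166 to 0.0262 ± 0.00655) were called lower, with adjusted p of up to 0.208 and 0.225 when 1 library was left out.

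**Figure D3:**
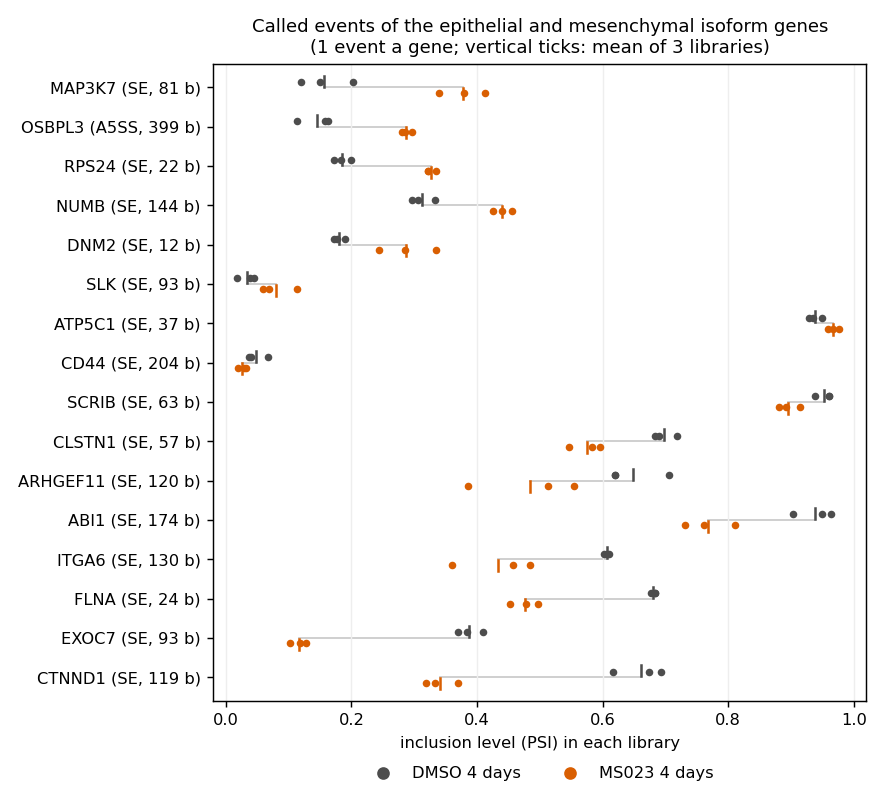
Ψ (PSI, horizontal axis) of the called event with the largest difference in 16 genes of the epithelial and mesenchymal list. Points are single libraries (3 with DMSO, 3 with MS023), short vertical lines are group means and a grey line joins them; event type and length in bases stand beside the gene. EXOC7, CTNND1 and FLNA lie lower with MS023, and MAP3K7, NUMB and RPS24 higher.

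Among all genes tested, 11.7% had a called event, and 1.96% of all events were called. Genes with textbook mutually exclusive exons had calls in 9 of 19 genes and 19 of 266 events (7.14%, 6 higher and 13 lower, median ΔΨ -0.000231). SNAP25, a SNARE of vesicle fusion, fell most, in an SE event of a 49-base exon, from 0.734 ± 0.0271 to 0.27 ± 0.0724 (adjusted p = 1.76e-06), with 29 reads in its shallowest library. This exon was tested in 4 events, of which 1 was called, with ΔΨ from -0.465 to 0.014. Endocytosis and vesicle coat genes had calls in 11 of 31 genes and 17 of 640 events (2.66%, median ΔΨ -0.000845). PICALM, a clathrin assembly protein, had a Ψ of 0.396, 0.377 and 0.389 for the 150-base exon shown above in DMSO and of 0.145, 0.149 and 0.152 with MS023 (log2 odds ratio -1.85 ± 0.15, adjusted p = 6.67e-35). These libraries were close within each group and did not overlap between them. AP1B1, an adaptor subunit, had a Ψ of 0.317, 0.308 and 0.302 for the 9-base microexon shown above in DMSO and of 0.441, 0.534 and 0.482 with MS023 (adjusted p = 2.55e-05), and SEC31A, of the COPII coat, rose from 0.214 ± 0.0198 to 0.424 ± 0.0689 (adjusted p = 1.46e-06).

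The other lists were close to or below the share of all events. Chromatin modifiers had calls in 7 of 43 genes and 10 of 691 events (1.45%, median ΔΨ -0.000536), among them the methyltransferase gene KMT2D, which rose from 0.124 ± 0.0162 to 0.349 ± 0.0343 in a 48-base exon (adjusted p = 1.99e-07), and SMARCC2, a subunit of SWI/SNF complexes, which rose from 0.677 ± 0.0134 to 0.841 ± 0.0487 (adjusted p = 3.07e-04). Transcription kinases and cyclins had 3 of 152 events called (1.97%, median ΔΨ -0.00326), in CDK11A and CDK13. CDK11A shares reads with its near-identical copy CDK11B and is uncertain, and with 1 library left out the adjusted p reached 0.0812 for CDK11A and 0.236 for CDK13. Genes of nonsense-mediated decay had 2 of 182 (1.1%, median ΔΨ -0.00148), in SMG1 and UPF3B, whose adjusted p reached 0.233 and 0.247 with 1 library left out. Genes with apoptosis isoforms had 2 of 209 (0.957%, median ΔΨ -0.00113), both in BCL2L12. The p53 pathway had 0 of 121 events called (median ΔΨ -0.00139), with 6 at an unadjusted p under 0.05 and 0 called by limma. Over all lists, 90 of 313 genes had a called event (28.8%) and 165 of 4539 events were called (3.64%).

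The libraries of 7 days have DMSO controls of their own and were not used for the calls at 4 days. At 7 days 2.57% of SE, 2.48% of MXE, 3.06% of A3SS and 5.27% of A5SS were called. Of the 1507 SE called at 4 days and tested at 7 days, 1438 (95.4%) had the same direction and 782 (51.9%) were also called. Of SE not called at 4 days, 59.0% had the same direction and 1.9% were called at 7 days. The 782 shared SE were a part of the 1809 called at 7 days among those tested at both times. For MXE, 186 of 203 (91.6%) had the same direction and 99 (48.8%) were called at 7 days, of 303 called there. The same direction was seen in 123 of 136 A3SS (90.4%) and 131 of 143 A5SS (91.6%), with 67 (49.3%) and 77 (53.8%) called at both times, of 183 and 209 called at 7 days. Among SE called higher at 4 days, 60.0% were also called at 7 days, and among those called lower 47.9%. The median absolute ΔΨ of SE called at 4 days was 0.0881 at 4 and 0.0574 at 7 days, and that of SE called at 7 days was 0.0556 at 4 and 0.0902 at 7 days, so each set was larger at the time that chose it.

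Among single exons, the PLEC exon had a Ψ of 0.749 ± 0.0237 in DMSO and of 0.25 ± 0.0193 with MS023 at 7 days (adjusted p = 5.22e-154). The GPBP1 exon had 0.215 ± 0.0087 and 0.474 ± 0.0183 (adjusted p = 3.98e-15), and the FN1 site 0.704 ± 0.00788 and 0.43 ± 0.00662 (adjusted p = 3.07e-33). In RAB11FIP3, DMSO itself was lower at 7 days, at 0.575 ± 0.0593, with 0.256 ± 0.0103 under MS023 (adjusted p = 6.78e-10). The 5′ UTR exon of FIGNL1 had a ΔΨ of 0.11 at 7 days (adjusted p = 0.64) and the PRMT7 exon of 0.18 (adjusted p = 0.21). These calls were among several not repeated, such as the 117-base PKM exon (adjusted p = 0.23) and the MKNK1 exon (adjusted p = 0.077). The ZNF688 site had the opposite sign at 7 days, with a ΔΨ of 0.086 (adjusted p = 0.72). An interaction term found a different effect of MS023 at 4 and 7 days in 55 of 38293 SE (0.144%), 15 of 10958 MXE (0.137%), 4 of 4734 A3SS (0.0845%) and 6 of 3002 A5SS (0.2%). Its unadjusted p was under 0.05 in 3167 SE, 851 MXE, 343 A3SS and 243 A5SS. Missing the threshold does not show an equal effect at both times. Of 119 described events tested at 7 days, 113 had the same direction and 68 were called, and 2 differed by the interaction term, in BCL2L12 and CLSTN1.

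MS023 at 2 days and GSK591 at 4 days were compared with the same 4-day DMSO libraries, so their values are only set beside those of MS023 at 4 days. ΔΨ of the PLEC exon was -0.42 with MS023 at 2 days, -0.50 at 4 days and -0.17 with GSK591. For EP400 the values were -0.40, -0.42 and 0.07, and for BRF1 -0.34, -0.41 and 0.07. For FN1 they were -0.32, -0.32 and 0.07. A direct fit of MS023 against GSK591 at 4 days, without DMSO, had adjusted p of 3.57e-186 for PLEC, 8.68e-30 for EP400, 2.69e-28 for BRF1 and 2.55e-33 for FN1. Some exons lay on opposite sides of DMSO. Ψ of the EXOC7 exon was 0.387 ± 0.02 in DMSO, 0.116 ± 0.013 with MS023 and 0.622 ± 0.0559 with GSK591 (direct adjusted p = 2.70e-62). For HNRNPA2B1 it was 0.378 ± 0.0308, 0.573 ± 0.0198 and 0.2 ± 0.0147 (1.90e-77), and for the first TPM2 exon 0.47 ± 0.0271, 0.626 ± 0.0372 and 0.255 ± 0.00397 (9.03e-225). Others had like values under both inhibitors. ΔΨ of the FIGNL1 exon was 0.41 with MS023 and 0.33 with GSK591 (direct adjusted p = 0.68), and that of the CARM1 exon -0.10 and -0.09 (direct adjusted p = 0.88). A p that misses the threshold does not show that the inhibitors act alike. These exons were picked on the MS023 libraries, which the direct fit also uses.

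The called exons differed in their build from other exons, which is given as a description with no test. Comparison exons were the 9826 tested exons with a Ψ between 0.05 and 0.95 in DMSO and no call. The called sets were not held to this range, and 60.7% of called SE lay in it, so the sets are unlike in this respect. Their median length was 116 bases, against 94 for the 487 exons called higher and 139 for the 968 called lower. Exons of at most 30 bases made up 5.13% of those called higher, 1.24% of those called lower and 2.09% of comparison exons. At the long end the order differed, with a 95th percentile of 624 bases for higher, 525.65 for lower and 313 for comparison exons. Among coding exons, a multiple of 3 was found in 65.9% of those called higher, 58.1% of those called lower, 51.9% of comparison exons and 43.5% of all tested. The introns on either side were shorter, with upstream medians of 1580 bases for higher, 1704.5 for lower and 2175 for comparison exons, and downstream medians of 1550, 1448.5 and 2092.5. Exons called higher were mostly skipped in DMSO, with a median Ψ of 0.361, and exons called lower mostly kept, with 0.915. Comparison exons had 0.81, a value that their set range bears on. Such starting points leave unequal room to rise and fall, and length enters Ψ through the effective lengths, and the part of either in these contrasts was not tested.

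Splice sites and short motifs differed less. The introns began with GT and ended with AG around 98.4% of exons called higher and 98.5% of those called lower. The intron bases after the exon were GTAAG or GTGAG in 38.8% of exons called higher, 44.3% of those called lower, 43.2% of comparison exons and 47.7% of all tested. Motifs were searched on the transcript strand, in the exon and in 100 intron bases on either side. GGGG was found in 26.9% of exons called higher, 36.6% of those called lower and 31.4% of comparison exons, although longer exons hold any motif more often. TGCATG, the motif of RBFOX proteins, was found upstream of 5.06% of exons called lower, 3.49% of those called higher and 3.01% of comparison exons, and downstream of 4.86%, 3.49% and 3.68%. GAAGAA, a purine-rich motif, was found downstream of 5.13% of exons called higher and of 3.2% of those called lower, against 3.18%, and in 12.1%, 11.5% and 10.8% of the exons themselves. TTTTT was found upstream of 40.7%, 36.2% and 38.0% of these sets and downstream of 27.3%, 26.9% and 27.5%. The median share of GC was 48.1% in exons called higher, 52.4% in those called lower and 50.8% in comparison exons.

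Called alternative sites lay far apart. Comparison A3SS and A5SS had a Ψ between 0.05 and 0.95 in DMSO and no call. The called sites were not held to this range, and 73.2% of called A3SS and 72.9% of called A5SS lay in it. The median length between both sites was 150 bases for A3SS called higher and 120 for those called lower, against 38 for comparison A3SS, and 142.5, 159 and 66 for A5SS. Sites at most 6 bases apart made up 28.2% of comparison A3SS but 5.71% of those called higher and 3.3% of those called lower. Some of the longer forms were close to retained introns. Of the 105 A5SS called lower, 32 (30.5%) covered at least 0.5 of an intron listed as RI, against 22.0% of all A5SS tested and 17.9% of those called higher. For A3SS the shares were 17.8% lower, 16.2% higher and 13.8% of those tested. The covered RI was itself called for 6 of the 32 A5SS, against 117 of all 919 tested A5SS that covered one. Among A3SS this was so for 4 of 18 called lower, against 99 of all 877. Of 390 genes with a called exon event and a tested RI, 86 (22.1%) also had a called RI, against 239 of 2141 genes tested for both (11.2%).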

How the data were processed

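Poly(A) RNA of A549 cells was sequenced by the authors, who trimmed reads with Trim Galore 0.6.5, aligned them to hg19 with STAR 2.4.2a and counted events with rMATS, per the submitters' processing notes. The notes also name Picard 2.3.0 and deepTools 3.3.1. The deposited tables give, per event and library, whole-number counts of inclusion and skipping reads joined by commas, which are not normalized, with effective lengths (other unit). Inclusion counts take in reads inside the exon as well as across its ends. The authors' own Ψ, p-values, FDR and differences were not used, except that Ψ was checked against the computed one. No column of sample values was left out (0).

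Ψ was computed as inclusion count over effective length, divided by that plus skipping count over effective length. Events with at least 10 reads in all 6 libraries were tested with a quasi-binomial logistic model, its dispersion moderated by squeezeVar of limma 3.58.1 (R 4.3.3) and held at 1 or above, an F test, and Benjamini-Hochberg adjustment within the event type. The prior was trended on depth and taken from events with at least 10 reads of the rarer form, a detail set on simulated data. For SE, A3SS and A5SS it had infinite degrees of freedom, so that events of like depth share 1 spread. On simulated data with 200 changed events, between 3.39% (A5SS) and 10.5% (MXE) of calls were false, and 13% (SE) to 55.5% (MXE) of changes were found. The simulated spread was drawn from the same fitted prior, so for SE, A3SS and A5SS it was the spread the model assumes. These rates cannot show how the calls fare where spread differs between events of like depth. Events were matched between tables by chromosome, strand and all exon ends. The 7-day control was inferred from the labels. Annotation was GENCODE 44 lifted to GRCh37.

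Described events are of 2 kinds. The ranked ones are called events with at least 50 reads in every library and no overlap between groups, ranked by absolute ΔΨ, 1 per gene: 10 SE and 3 of each other type per direction. For the gene lists it is the called event with the largest difference in each gene, with neither limit. A PKM and a DDX5 event were added after their values were seen. The members and lists were chosen with earlier results of these data known. Alternatives were limma on log2 odds with 0.5 added, other read minimums, no effective lengths, a minimum ΔΨ, 1 event per segment, adjustment over all types, another prior and leaving out each library. The values of some genes are not reported here.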

Additional observations from a re-analysis of the deposited data

Results flagged for a closer look

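The effect of MS023 differed between 4 and 7 days in 2 of the described exons, by the interaction term of the quasi-binomial model. The 140-base exon of BCL2L12, a relative of the BCL2 family, had a ΔΨ of -0.12 at 4 days and 0.08 at 7 days (adjusted p of the difference = 0.000225). Its Ψ at 4 days was 0.619, 0.659 and 0.639 in DMSO and 0.523, 0.543 and 0.483 with MS023. At 7 days it was 0.402 ± 0.0435 in DMSO and 0.478 ± 0.0429 with MS023 (SD, n = 3 each, adjusted p = 0.091), so DMSO itself was lower at 7 days. These values belong to 1 pair of flanking exons. At 4 days the exon was tested in 3 events, of which 1 was called, with ΔΨ from -0.123 to 0.0412.

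The 57-base exon of CLSTN1, a calsyntenin, had a ΔΨ of -0.12 at 4 days and 0.07 at 7 days (adjusted p of the difference = 0.00127). Ψ at 4 days was 0.69, 0.718 and 0.683 in DMSO and 0.546, 0.583 and 0.595 with MS023, and at 7 days it was 0.434 ± 0.0882 and 0.506 ± 0.093 (adjusted p = 0.27). The cause of the lower DMSO values at 7 days was not tested.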

How the results depend on the processing

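Given the log2 odds of each library, limma called 3 SE, 21 MXE, 0 A3SS and 0 A5SS, against 1554, 322, 138 and 144 with the quasi-binomial model, and 1 of the 126 described events. With the prior taken from events with at least 120 reads of the rarer form, chosen after seeing the data, it called 66 A3SS, while the other types stayed within 1.5 times, and 108 of the 126 described events were still called. Leaving out 1 library gave 1036 to 1223 SE, 183 to 280 MXE, 82 to 105 A3SS and 97 to 116 A5SS. Of the described events, 71 were called without each of the 6 libraries in turn, 55 were lost at least once, and 21 were called in at most 2 of these fits. The other alternatives kept every count within 1.5 times, from 1065 SE with a minimum ΔΨ of 0.05 to 1568 with at least 20 reads. Without effective lengths all 126 described events kept their direction, but ΔΨ moved by over 1.5 times in 46, whose median length was 252.5 bases against 85 for the rest. The difference in median Ψ over SE was -0.0014 without lengths, and -0.00297 to -0.00232 with 1 library left out. No result reversed. No paired analysis was possible because the columns carry no replicate numbers. An edgeR fit was not run, since the comma-joined counts are not a count column. Called SE had a median of 421 reads in their shallowest library, against 182 for all SE tested, and the part of depth in the calls was not tested.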
